A study of Homo sapiens with 16 samples.

Results

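The mitochondrial respiratory chain was followed through 48 genes, found by their symbols in a count table of 60676 genes. They are the 13 protein-coding genes of the mitochondrial genome, 31 nuclear genes for subunits of the same machinery, and 4 nuclear regulators, TFAM, POLRMT, PPARGC1A and PPARGC1B. All 48 symbols matched a row, and 47 passed the filter on low counts. PPARGC1A did not pass it.

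Poly(A) RNA was sequenced from cells labelled HCT116, a human colorectal carcinoma line, in 16 libraries of 8 groups with 2 libraries each. One arm held an shRNA against NELFE (shNELFE) and the other a control shRNA (shCTL), and both were given DMSO as the vehicle, EPZ-5676, HMBA, or the pair of compounds together. NELFE is a subunit of the negative elongation factor that pauses RNA polymerase II. EPZ-5676 (pinometostat) inhibits the histone methyltransferase DOT1L, and HMBA (hexamethylene bisacetamide) is a differentiation inducer known to raise HEXIM1. The labels give neither dose nor time. They also do not say whether the 2 libraries of a group are separate cultures, and the p-values below rest on the spread between libraries, which may be technical.

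Oxidative phosphorylation is carried out by complexes I to IV, which move electrons from NADH and succinate to oxygen, with complexes I, III and IV pumping protons, and by complex V, the ATP synthase. Complexes I, III, IV and V are built from subunits of both genomes, whereas complex II is encoded in the nucleus alone. The mitochondrial mRNAs are cut from long transcripts of the heavy strand, except MT-ND6, which lies on the light-strand transcript and carries little or no poly(A) tail. They are made by the polymerase POLRMT with the factors TFAM and TFB2M, and the nuclear subunit genes are regulated in part by NRF1, by ETS-family factors and by coactivators of the PGC-1 family.

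The results below rest on 9 libraries: the 8 numbered 2, and the shNELFE EPZ-5676 plus HMBA library numbered 1. The other 7 libraries numbered 1 stood apart, with a Pearson's r of log2 counts per 1000000 counts (CPM) of 0.736 to 0.802 against the 9, which correlated with each other at 0.935 to 0.991. Total counts ran from 13428893 to 21319666 per library, so that 3 counts correspond to 0.141 to 0.223 CPM. In the 9, NELFE read 64.8 to 90.1 CPM in the shCTL libraries and 10.5 to 24.1 CPM in the shNELFE libraries, and HEXIM1 read 274 to 365 CPM with HMBA and 74.4 to 90.3 CPM without. In the 7, NELFE read 82.1 to 145 CPM in the 3 libraries labelled shNELFE and 90.7 to 258 CPM in the 4 labelled shCTL. HEXIM1 read 47.0 to 78.3 CPM in the 3 labelled HMBA and 40.8 to 66.9 CPM in the 4 others. Both pairs of ranges overlapped, so neither label set these libraries apart as it did in the 9. The epithelial markers EPCAM (292 to 501 CPM) and KRT8 (2492 to 3809 CPM) were high in the 9, while the intestinal CDX1 and VIL1 were at or near 0. In the 7, CDH1 ran from 0.0939 to 1503 CPM and KRT19 from 0 to 4157 CPM, and 8 mesenchymal markers summed to 13.4 to 7605 CPM, against 38.6 to 99.5 CPM in the 9. EPCAM was lower in the 7 (13.5 to 238 CPM), but KRT8 (3718 to 15785 CPM) and KRT18 (3151 to 7125 CPM) were high in all of them. The 9 epithelial markers summed to 6894 to 28679 CPM in the 7, above the 4463 to 6640 CPM of the 9 libraries.

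Pairs of the mitochondrial genes share bases, which bears on how their reads are counted. On chromosome M of hg38, MT-ATP8 and MT-ATP6 overlap by 46 bases, 22.2% of MT-ATP8, and MT-ND4L and MT-ND4 overlap by 7 bases, as shown here in capitals with 12 bases on each side.
MT-ATP8 and MT-ATP6, chrM:8515-8584, heavy-strand mRNA sense: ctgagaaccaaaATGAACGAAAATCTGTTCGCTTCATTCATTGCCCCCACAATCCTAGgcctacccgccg
MT-ND4L and MT-ND4, chrM:10748-10778, heavy-strand mRNA sense: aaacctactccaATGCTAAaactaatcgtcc
In both runs the capitals open with the start codon of the downstream gene. The sources used here do not say how reads on these bases were assigned or whether the counting used strand, so values of MT-ATP8, the shortest of the 13 genes, and of MT-ND6, which lies antisense to the heavy-strand transcript, are less certain than the others.

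Without HMBA, counts of the 13 mitochondrial genes per unit of length spanned more than 2 orders of magnitude, through MT-ND6 alone. The others ran from 1011 for MT-ATP8 to 11004 for MT-CO2. Overlapping genes share transcripts, so a gap between MT-ATP8 and MT-ATP6, or MT-ND4L and MT-ND4, need not be one in mRNA level. On the scale of CPM per kilobase of exon, using totals scaled by the trimmed mean of M values (TMM), MT-CO2, a catalytic subunit of cytochrome c oxidase, was highest at 11004 ± 501 (SD, n = 4). MT-CO3 (7692 ± 441) and MT-CO1 (7048 ± 449.7), the other mitochondrial subunits of complex IV, came next, and their ranges overlapped each other but not that of MT-CO2. MT-ND4 (5439 ± 583) and MT-ATP6 (5155 ± 511) overlapped, as did MT-ND2 (3127 ± 283) and MT-CYB (2805 ± 253). MT-ND4L (1781 ± 339), MT-ND1 (1671 ± 175), MT-ND3 (1519 ± 109) and MT-ND5 (1402 ± 136) each overlapped their neighbours in this order. MT-ATP8 followed at 1011 ± 175, below the range of MT-ND5, and MT-ND6, the light-strand mRNA, was lowest at 87.5 ± 23.3.

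**Figure D1:**
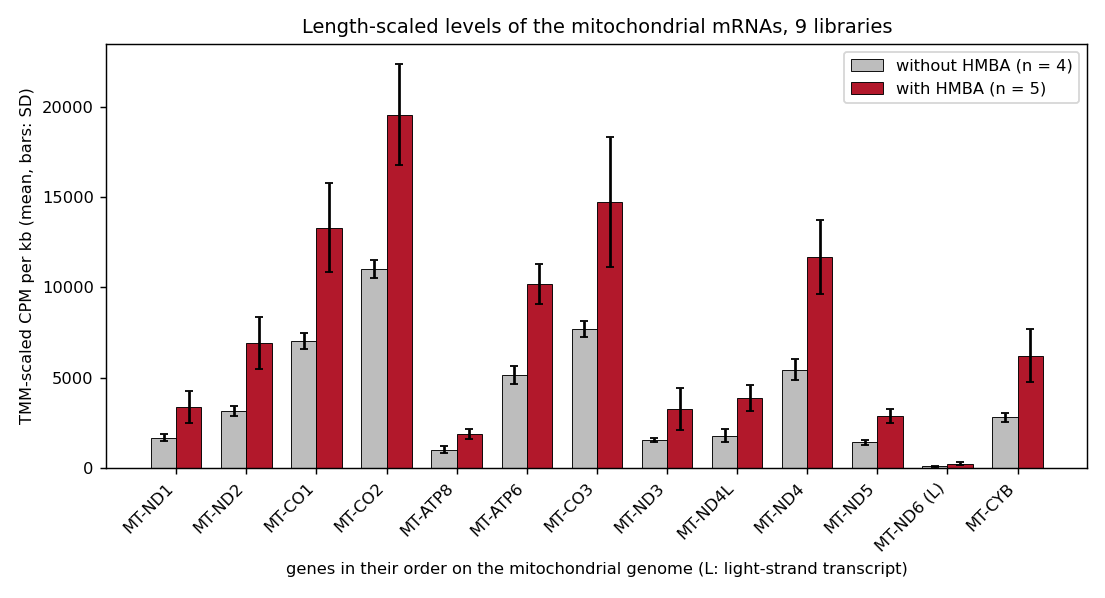
Length-scaled levels of the 13 mitochondrial mRNAs in genome order, as TMM-scaled CPM per kilobase, in the 4 libraries without HMBA (grey) and the 5 with HMBA (red), with bars for the mean and lines for the SD. MT-CO2 is highest and MT-ND6 (L, light strand) lowest in both sets, and every mean is higher with HMBA.

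All 13 mitochondrial mRNAs rose with HMBA, to about 2-fold: the median log2 fold change was 1.02, from 0.81 for MT-CO2 to 1.14 for MT-ND6. Of the 31 nuclear subunits, 24 rose, 0 fell and 7 did not pass the test, with a median log2 fold change of 0.49. The 3 tested regulators, TFAM, POLRMT and PPARGC1B, fell. These calls are from edgeR's quasi-likelihood test with additive terms for HMBA, EPZ-5676 and shNELFE, at a Benjamini-Hochberg adjusted p under 0.05 over 14912 genes. The test called 31% of all genes higher and 32% lower, and the median over all genes was 0.02. Each arm mixes groups: 5 libraries had HMBA and 4 did not. Markers of other cell states moved too: of 5 tested mesenchymal markers 3 were called higher with HMBA (COL1A1, ZEB1 and FN1), their 8-gene sum being 57.7 to 99.5 CPM with and 38.6 to 74.2 CPM without, with COL1A2 and ZEB2 at or near 0. Of 7 tested epithelial markers, CDH1 was higher and KRT18 and CDX2 were lower. The part of these in the changes of the chain was not tested.

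**Figure D2:**
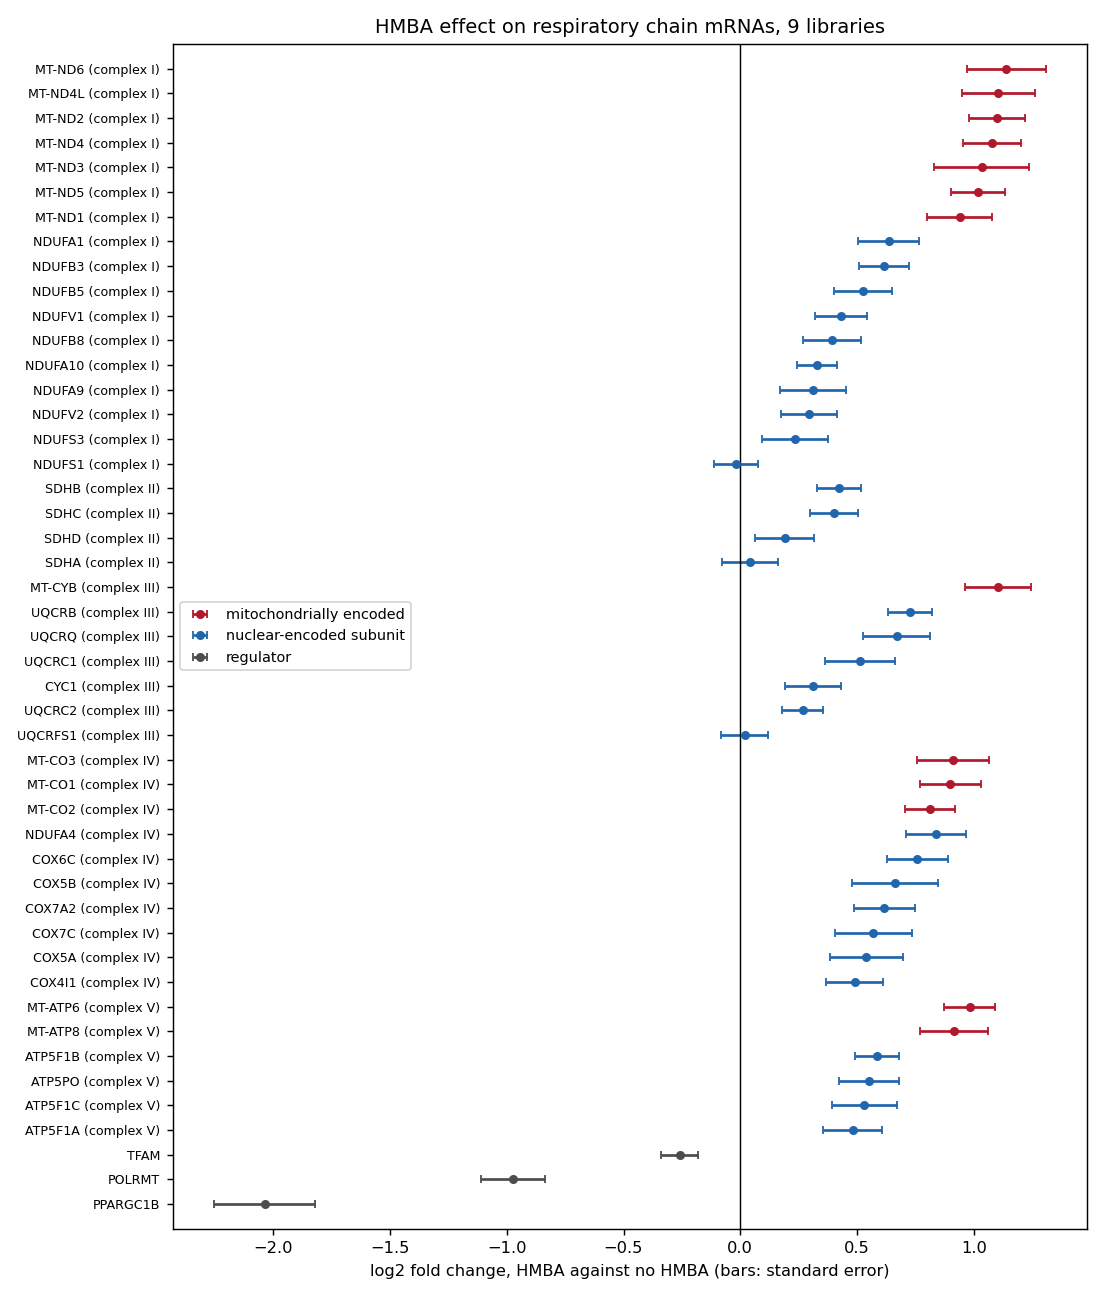
Log2 fold change with HMBA for the 47 tested genes by complex, with the standard error as bars, for mitochondrially encoded mRNAs (red), nuclear-encoded subunits (blue) and regulators (grey). Mitochondrial mRNAs lie between 0.81 and 1.14, nuclear subunits between -0.02 and 0.84, and the 3 regulators below 0.

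The calls depended on which libraries were used. With all 16 libraries, 0 of 13 mitochondrial mRNAs and 0 of 31 nuclear subunits were called for HMBA by edgeR, where 0% of all genes were called. The same counts came with the replicate number as a block, again with 0% of all genes called. Such zeros do not set the chain apart from all genes. In the fit of 16 libraries without the block, 10 of the 13 mRNAs had an unadjusted p under 0.05 and the median was 0.49. In the 8 libraries numbered 1 alone, where 0% of all genes were called, the median was 0.12 and 0 of 13 had an unadjusted p under 0.05. On unscaled library totals, the 13 mRNAs were still called higher (median 0.75), but only 13 nuclear subunits were called higher and NDUFS1, SDHA and UQCRFS1 were called lower. That scaling moved the median of all genes by -0.26 and the share of higher calls among all calls from 49.3% to 30.2%.

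Complex I, the NADH dehydrogenase, has 7 mitochondrial subunits, which form part of its proton-pumping membrane arm. Levels from here on are TMM-scaled CPM, with libraries named in a fixed order: without HMBA, shCTL DMSO, shNELFE DMSO, shCTL EPZ-5676 and shNELFE EPZ-5676, and with HMBA, shCTL HMBA, shNELFE HMBA, shCTL with both compounds, and shNELFE with both compounds, replicates 1 and 2. MT-ND4 read 7698, 8439, 6506 and 7335 CPM without HMBA, and 13272, 15867, 15641, 20751 and 14988 CPM with it. All 5 libraries with HMBA lay above all 4 without, and the highest was replicate 1 of shNELFE with both compounds. The log2 fold change was 1.08 (SE 0.12, edgeR adjusted p 2.2e-05).

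MT-ND2 gave the same order of libraries at its ends, with 3175, 3608, 2907 and 3344 CPM without HMBA and 5616, 7122, 6742, 9676 and 6957 CPM with it. Its log2 fold change was 1.10 (SE 0.12), and that of MT-ND5, the largest mitochondrial subunit of the complex, was 1.02 (SE 0.12). MT-ND1 (0.94), MT-ND3 (1.03) and MT-ND4L (1.10) were also higher in every library with HMBA than in any without. Among all genes tested, 23.9% had all 5 libraries with HMBA above all 4 without, and 12 of the 13 mitochondrial mRNAs and 21 of the 31 nuclear subunits did. The mitochondrial exception was MT-ND6.

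The rest of complex I was represented by 10 nuclear genes, and 6 of these rose. NDUFA1, a small subunit of the membrane arm, rose most. It read 44.3, 48.04, 42.5 and 43.8 CPM without HMBA and 61.7, 68.0, 65.3, 96.1 and 62.3 CPM with it. The groups did not overlap, and the log2 fold change was 0.63 (SE 0.13, edgeR adjusted p 0.00139). NDUFS1, the largest core subunit, which carries iron-sulfur clusters, read 121, 121, 109.9 and 111 CPM without HMBA and 117, 111, 107, 133 and 104 CPM with it. Its groups overlapped, and the log2 fold change was -0.02 (SE 0.09, edgeR adjusted p 0.869), with a lower value with HMBA in all 4 pairs of libraries numbered 2. Besides NDUFS1, the subunits NDUFS3 (0.23), NDUFV2 (0.29) and NDUFA9 (0.31) did not pass the test. In the 8 libraries numbered 2, which leave out replicate 1 of shNELFE with both compounds, NDUFV2 (0.20) and NDUFA9 (0.18) were called higher. NDUFS3 (0.11) and NDUFS1 (-0.08) were not called there. NDUFS1, NDUFS3 and NDUFV2 belong to the nuclear-encoded part of the catalytic core, whose other nuclear-encoded member here, NDUFV1, rose by 0.43.

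Complex II, succinate dehydrogenase, has no mitochondrial subunit, and its 4 genes changed least, with a median log2 fold change of 0.30. SDHB, the iron-sulfur subunit, rose most, from 120.4, 116, 136 and 123 CPM to 165, 157, 167, 195 and 148 CPM. The groups did not overlap (log2 fold change 0.42, SE 0.09, edgeR adjusted p 0.00249). SDHC, a membrane anchor, rose by 0.40 on the log2 scale. SDHA, the flavoprotein (0.04), and SDHD, the other anchor (0.19), did not pass the test.

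In complex III, the cytochrome bc1 complex, MT-CYB (cytochrome b) is the single mitochondrial subunit. It read 3272, 3522, 2824 and 3184 CPM without HMBA and 5493, 6868, 6623, 9927 and 6588 CPM with it. The groups did not overlap, and the log2 fold change was 1.10 (SE 0.14, edgeR adjusted p 4.88e-05). Of 6 nuclear subunits, 5 rose. UQCRB, a small subunit near the ubiquinone site, rose most, from 163, 143, 182 and 143 CPM to 259, 238, 282, 291 and 225 CPM, and again the groups did not overlap (log2 fold change 0.73, SE 0.09). UQCRFS1, the Rieske iron-sulfur protein, had a log2 fold change of 0.02 (SE 0.10, edgeR adjusted p 0.883). CYC1, cytochrome c1, passed the test narrowly (0.31, edgeR adjusted p 0.0432), and its call was kept only in the fits that left out a library of shNELFE with both compounds.

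Complex IV, cytochrome c oxidase, had the highest median log2 fold change among nuclear subunits, 0.62, and all 7 were called. Its mitochondrial subunits had the 3 smallest log2 rises of the 13 mRNAs, 0.81 for MT-CO2, 0.90 for MT-CO1 and 0.91 for MT-CO3. MT-CO1, which holds the oxygen-reducing centre, read 11216, 11648, 10109.6 and 10496 CPM without HMBA and 18035, 19406, 20255, 27148 and 17845 CPM with it. Every library with HMBA was above every library without. NDUFA4, named for complex I but a subunit of complex IV, had the largest nuclear rise. It went from 75.5, 77.4, 81.0 and 73.5 CPM to 116, 132, 132, 195 and 134 CPM, with no overlap (log2 fold change 0.84, SE 0.13, edgeR adjusted p 0.000195). COX6C (0.76), COX5B (0.66), COX7A2 (0.62), COX7C (0.57), COX5A (0.54) and COX4I1 (0.49) followed. COX7C was the one of these whose groups overlapped.

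In complex V, MT-ATP6, the proton channel subunit, read 3792, 3822, 3139 and 3288 CPM without HMBA and 6150.0, 6767, 7355, 8043 and 6367 CPM with it, a log2 fold change of 0.98 (SE 0.11, edgeR adjusted p 2.05e-05). The groups did not overlap. MT-ATP8, a small membrane subunit, read 247, 229, 166 and 194 CPM without HMBA and 309, 419, 448, 357 and 423 CPM with it, also without overlap. All 4 nuclear subunits rose, with a median of 0.54. ATP5F1B, the catalytic beta subunit, went from 1127, 1279, 1029 and 1184 CPM to 1520.2, 1914, 1531, 2180.5 and 1687 CPM (log2 fold change 0.58, SE 0.10). Its lowest library with HMBA lay above its highest without.

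**Figure D3:**
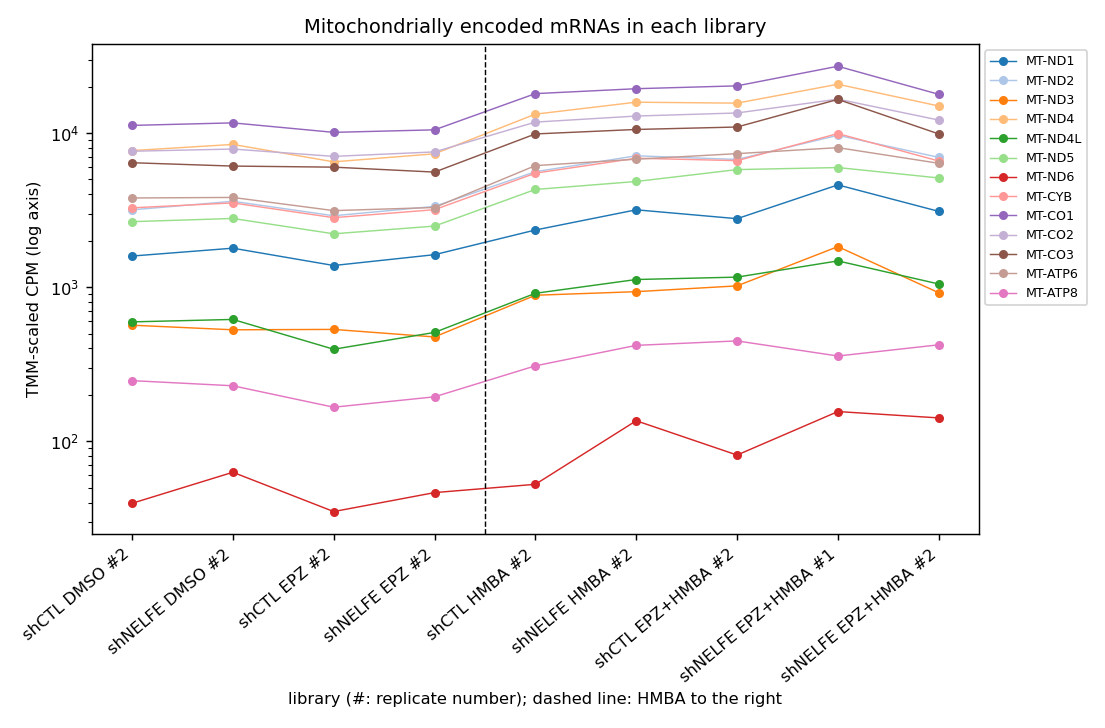
TMM-scaled CPM on a log axis for each of the 13 mitochondrial mRNAs (lines) in the 9 libraries, with those given HMBA to the right of the dashed line. The mRNAs step up together across the line, and MT-ND6 varies most from library to library, from 35.0 to 156 CPM.

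The mitochondrial share of the respiratory chain reads was larger with HMBA. The 13 mRNAs took 4.81% to 5.65% of all counts without HMBA and 7.65% to 9.96% with it, while the 31 nuclear subunits took 0.581% to 0.612% and 0.643% to 0.804%. The ratio of their summed counts was 9.31, 9.23, 8.29 and 8.68 without HMBA, and 11.7, 11.9, 13.7, 12.4 and 12.4 with it. The groups did not overlap, and the mean ratio was 1.40 times higher with HMBA (12.4 ± 0.779, n = 5, against 8.88 ± 0.484, n = 4). Within each complex the ratio was higher by 1.65 times in complex I, 1.63 in complex III, 1.21 in complex IV and 1.34 in complex V, with no overlap in any of these. In the 7 libraries that stood apart, the ratio was 7.99 to 11.2 in the 3 labelled HMBA and 8.53 to 11.6 in the 4 others, which overlapped. In bulk RNA, fewer cells of a kind and less RNA per cell cannot be told apart, and a share moves whenever other genes move. Because members were chosen with results known, the ratio was not tested.

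**Figure D4:**
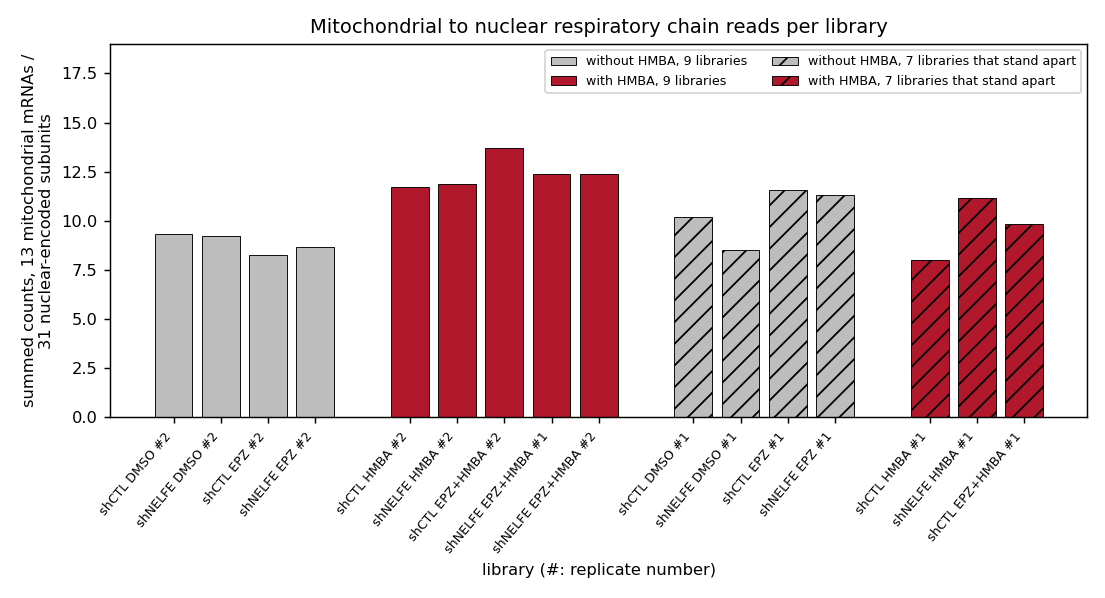
Ratio of the summed counts of 13 mitochondrial mRNAs to those of 31 nuclear-encoded subunits in each of the 16 libraries, in grey without and in red with HMBA, with the 7 libraries that stand apart hatched. Among the 9 plain bars, the 5 with HMBA (11.7 to 13.7) are above the 4 without (8.29 to 9.31), and the hatched bars overlap.

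Each of the 4 pairs of libraries numbered 2 that differ in HMBA alone showed the rise, in 13 of 13 mitochondrial mRNAs. The median log2 ratio of the 13 was 0.65 for shCTL and 0.83 for shNELFE without EPZ-5676, and 1.22 for shCTL and 1.03 for shNELFE with EPZ-5676. For the 31 nuclear subunits the same medians were 0.34, 0.50, 0.31 and 0.37. The mitochondrial step was thus wider where EPZ-5676 was present, and the nuclear step was not. Each pair holds 1 library on each side.

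The product term of HMBA and EPZ-5676, which asks whether one compound alters the response to the other, had a median of 0.46 over the 13 mitochondrial mRNAs, from 0.26 for MT-CO2 to 0.68 for MT-ND4L. For the 31 nuclear subunits the median was 0.15, and over all genes it was 0.01. None passed the test: 0 of 13 and 0 of 31 were called by edgeR, where 0% of all genes were, and the smallest adjusted p was 1. At an unadjusted p under 0.05 there were 4 mitochondrial mRNAs, MT-ND4L (0.68, SE 0.23), MT-ND6 (0.66, SE 0.28), MT-ATP8 (0.57, SE 0.24) and MT-ND5 (0.50, SE 0.18), and 0 nuclear subunits. These values depended on replicate 1 of shNELFE with both compounds. Without it, in the 8 libraries numbered 2, the mitochondrial median was 0.28, from 0.14 for MT-CO3 to 0.68 for MT-ATP8, and the nuclear median was -0.02. There 9 of 13 mitochondrial mRNAs and 1 of 31 nuclear subunits, COX4I1, had an unadjusted p under 0.05. Still 0 of 13 and 0 of 31 were called by edgeR, where 0.0338% of all genes were, and the smallest adjusted p of the 13 was 0.156. The 13 mRNAs come from shared transcripts and are not independent.

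No gene of the chain was called for EPZ-5676 itself. EdgeR called 0 of 13 mitochondrial mRNAs, 0 of 31 nuclear subunits and 0 of 3 regulators, where 0.201% of all genes were called, and 0 of the 13 and 0 of the 31 had an unadjusted p under 0.05. Of all genes, 0.0671% were called higher and 0.134% lower. DESeq2, which called 1.71% of all genes, and limma-voom, which called 0.181%, also called 0 of the 13 and 0 of the 31, as did edgeR on the 8 libraries numbered 2, where 1.36% of all genes were higher and 2.44% lower. The median log2 fold change was 0.06 for the mitochondrial mRNAs, from -0.10 for MT-ATP8 to 0.18 for MT-ND3, with 10 of 13 above 0, and 0.07 for the nuclear subunits. Without replicate 1 of shNELFE with both compounds the direction turned: the mitochondrial median was -0.04, with 2 of 13 above 0, and the nuclear median was -0.04. The 4 single pairs pointed in different directions. With EPZ-5676 and no HMBA, 13 of 13 mRNAs were lower, both in shCTL (median -0.20) and in shNELFE (median -0.15). With HMBA present, 13 of 13 were higher in shCTL (median 0.26), whereas 10 of 13 were lower in shNELFE (median -0.06).

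With the shRNA against NELFE edgeR called 1 gene of the chain higher, MT-ND6, a complex I subunit. If the counting did not use strand, its reads cannot be told apart from those of the opposite strand. It read 39.6 and 35.0 CPM in shCTL against 62.9 and 46.4 CPM in shNELFE with DMSO and with EPZ-5676, and 52.5 and 81.4 CPM in shCTL against 136, 156 and 142 CPM in shNELFE with HMBA and with both compounds. Each shNELFE library lay above its shCTL partner in 4 of 4 pairs, although the whole arms overlapped, since HMBA raised MT-ND6 too. The log2 fold change was 0.86 (SE 0.16, edgeR adjusted p 0.0253), where 0.764% of all genes were called higher and 1.6% lower (2.37% in all). Beside these shares, edgeR called 1 of 13 mitochondrial mRNAs, 0 of 31 nuclear subunits and 0 of 3 regulators. A single call is too few to set the chain apart from all genes. Without EPZ-5676, MT-ND6 read 136 CPM in the shNELFE library with HMBA and 39.6 CPM in the shCTL library with DMSO. The product of HMBA and shNELFE for MT-ND6 was 0.55 (SE 0.29, edgeR adjusted p 0.879). Across alternatives the adjusted p ran from 2.36e-05 (no filter on low counts) to 1 (all 16 libraries). In fits that left out 1 of the 9 libraries, the call held in 4 of 9, with a largest adjusted p of 0.126 and log2 fold changes of 0.65 to 1.01. It was lost without the library numbered 2 of shNELFE DMSO, shCTL EPZ-5676, shCTL HMBA, shNELFE HMBA or shCTL with both compounds.

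The other 12 mitochondrial mRNAs did not pass the test for shNELFE, with log2 fold changes of 0.05 for MT-ATP6 to 0.36 for MT-ND1, and 0 of 31 nuclear subunits passed (median 0.17, with 7 at an unadjusted p under 0.05). DESeq2, which called 7.13% of all genes, called 2 nuclear subunits, and limma-voom (2.54%) called 0. The whole arms overlapped for all 13 mitochondrial mRNAs and for 30 of 31 nuclear subunits, where 1.51% of all genes had every shNELFE library above every shCTL library and 1.66% below. The exception, named after its values were seen, was UQCRFS1, higher in every shNELFE library (log2 fold change 0.28, edgeR adjusted p 0.173). Replicate 1 of shNELFE with both compounds, the highest library for most members, widened the spread: the biological coefficient of variation was 0.135 with it and 0.0811 without. In the 8 libraries numbered 2, 13 mitochondrial mRNAs and 26 nuclear subunits were called higher with HMBA (34.9% of all genes higher, 35.7% lower). Their median log2 fold changes for HMBA were 0.94 and 0.38, against 1.02 and 0.49 in the 9 libraries. In the same libraries, where edgeR called 5.62% of all genes higher and 7.48% lower for shNELFE, MT-ND6 (0.81, adjusted p 0.0022) and MT-ND1 (0.24) were called higher. So were COX7C (0.38), NDUFB3 (0.32), ATP5F1B (0.21) and SDHC (0.21), while UQCRB (-0.25) and CYC1 (-0.20) were called lower. These 8 are named because that fit called them. The nuclear median for shNELFE was 0.06 in that fit, with 11 of 31 at an unadjusted p under 0.05, and MT-ND3 (-0.085), MT-CO3 (-0.059) and MT-ATP6 (-0.0038) turned below 0. The product of HMBA and shNELFE called 0 of 47 members, where 0.0134% of all genes were called.

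The regulators moved against the subunits under HMBA. POLRMT, the mitochondrial RNA polymerase (19:617224-633604 on hg38, minus strand), read 59.5, 55.0, 71.3 and 78.6 CPM without HMBA and 26.9, 37.1, 30.6, 48.3 and 31.9 CPM with it. All 5 libraries with HMBA lay below all 4 without, as for 26.2% of all genes, and POLRMT fell by 0.97 on the log2 scale (SE 0.14, edgeR adjusted p 0.000103). PPARGC1B, a PGC-1 family coactivator, went from 25.2, 28.7, 34.5 and 39.0 CPM to 9.09, 9.41, 9.61, 4.50 and 6.21 CPM, also without overlap (log2 fold change -2.04, SE 0.22, edgeR adjusted p 1.25e-05). TFAM, which packages mitochondrial DNA and opens its promoters, read 60.1, 66.2, 65.6 and 68.7 CPM without HMBA and 52.8, 55.3, 52.7, 52.6 and 61.2 CPM with it. Its groups overlapped through 1 library on each side, and the change was small (-0.26, SE 0.08, edgeR adjusted p 0.0150). TFAM lost its call without the shCTL EPZ-5676 or the shNELFE EPZ-5676 library numbered 2, with a largest adjusted p of 0.0578. PPARGC1A, the best known PGC-1 coactivator, had 4 counts in the 9 libraries together and was not tested. None of the 3 passed the test for EPZ-5676 or shNELFE.

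**Figure D5:**
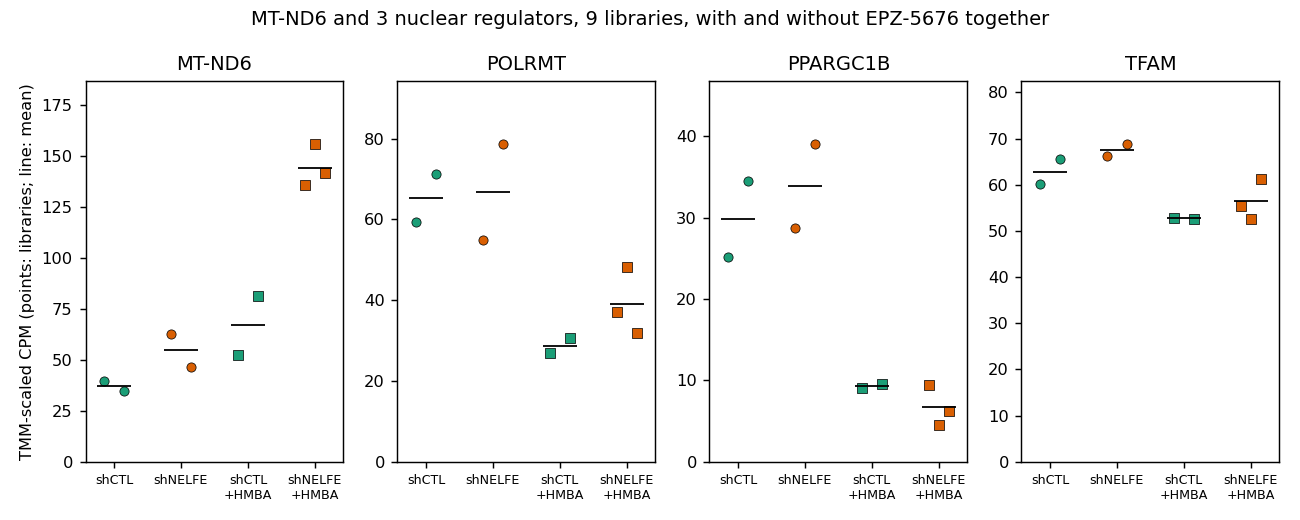
TMM-scaled CPM of MT-ND6, POLRMT, PPARGC1B and TFAM in the 9 libraries, by shRNA (green shCTL, orange shNELFE) and HMBA (squares with, circles without), with libraries given EPZ-5676 pooled with their partners and lines at the mean. MT-ND6 is highest in shNELFE with HMBA (136 to 156 CPM), while the regulators are lower with HMBA, with 1 TFAM library at 61.2 CPM reaching into the range without it.

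Promoter sequence was read for the nuclear members, because subunits and regulators moved in opposite directions. RefSeq promoters of GRCh38.p14, from 250 bases before to 50 bases after the start, were at hand for 24 of the 31 subunits and for 4 regulators. The palindromic site of NRF1, which is GCGC, then AT, then GCGC, searched on both strands, was in 2 of 24 subunit promoters (SDHD and ATP5F1C) and in that of POLRMT, against 1.36% of 27305 promoters. The looser form with NN in place of AT, which includes every match of the first, was in 7 of 24 (29.2%) and in 3 of 4 regulators (TFAM, POLRMT and PPARGC1A), against 8.78% of all. The ETS-type core CCGGAAG was in 8 of 24 (33.3%) and in POLRMT, against 10.7% of all. The E-box CACGTG was in 0 of 24 and in PPARGC1A, against 7.43%. Sites in 4 genes are shown, with the match in capitals and 10 bases on each side, to set 2 regulators that fell beside a subunit that rose and 1 that did not pass the test.
POLRMT, 19:633542-633571, minus strand: ggcggcgcggGCGCATGCGCaggcgcgggc
TFAM, 10:58385337-58385366, plus strand: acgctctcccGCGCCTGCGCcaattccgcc
ATP5F1C, 10:7788145-7788174, plus strand: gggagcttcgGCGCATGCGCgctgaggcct
SDHD, 11:112086753-112086782, plus strand: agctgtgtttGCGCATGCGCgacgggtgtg
POLRMT, which fell by 0.97, ATP5F1C, which rose by 0.53, and SDHD, at 0.19 and not called, thus hold the same 10 letters. The motifs were chosen with the expression values known, and a match is no evidence of binding.

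Other genes of the pathway were taken from lists of subunits and mitochondrial factors and read from the same fit for HMBA, in which 31% of all genes were called higher and 32% lower. Of 49 further nuclear subunits, 39 (79.6%) rose and 0 fell (median 0.46), led by COX6A1 of complex IV (0.84), NDUFB9 of complex I (0.70) and ATP5MJ of complex V (0.66). Over all 80 nuclear subunits, 63 rose and 0 fell. Of 25 genes of the citric acid cycle and of mitochondrial mass, 16 (64%) rose and 1 (4%) fell: OGDH, a subunit of 2-oxoglutarate dehydrogenase, rose by 1.81, CYCS, cytochrome c, by 0.99 and SLC25A4, the ADP/ATP carrier, by 0.77, while TOMM40, the import channel, fell by 0.88. The mitochondrial rRNA MT-RNR2 rose by 0.81, and MT-RNR1 (0.53, edgeR adjusted p 0.120) did not pass the test.

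Of 27 genes of mitochondrial transcription and RNA processing, 14 (51.9%) fell and 4 (14.8%) rose (median -0.38), against 32% and 31% of all genes. TFB2M, the initiation factor that works with POLRMT, fell by 1.38, MTPAP, the mitochondrial poly(A) polymerase, by 1.501 and FASTKD3, an RNA-binding protein, by 1.62. LRPPRC (0.54) and SLIRP (0.46), partners that stabilise mitochondrial mRNAs, rose, as did HSD17B10 (0.47), a subunit of mitochondrial RNase P. Of 13 genes of mitochondrial DNA replication and nucleotide supply, 6 (46.2%) fell and 3 (23.1%) rose, which are small counts beside the same shares of all genes. The helicase TWNK fell by 2.18, the kinase TK2 by 1.29 and the ligase LIG3 by 1.00, whereas the polymerase POLG rose by 0.96, RRM2B by 0.56 and DGUOK by 0.49.

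Of 91 genes of mitochondrial translation, 31 fell and 12 rose (median -0.12). The share that fell, 34.1%, was near the 32% of all genes, and 13.2% rose, against 31% of all genes. MRPS30 (-1.16), MRPL36 (-1.09) and MRPL34 (-1.07) were lowest and MRPL13 (0.50), DAP3 (0.48) and MRPS6 (0.45) highest among those called with at least 2 CPM. Of 46 assembly factors, 15 (32.6%) fell and 12 (26.1%) rose, shares near those of all genes. COA7 (-2.83) and PET117 (-2.11), both needed for complex IV, and SDHAF1 (-1.47), needed for complex II, fell most, and NDUFAF1 (0.82), an assembly factor of complex I, SDHAF4 (0.71) and SURF1 (0.57) rose most. Of 14 tested biogenesis regulators, 6 (42.9%) fell and 2 (14.3%) rose. PPRC1, a further PGC-1 family coactivator, fell by 2.06, GABPB1, a partner of the ETS factor GABPA, by 1.24 and NRIP1, a corepressor, by 1.12. PPARD (0.79) and SIRT3 (0.30) rose. Of 7 tissue-specific subunit isoforms, 1 was tested and it was not called.

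Nuclear copies of mitochondrial genes can share reads with them. The annotation names 394 such copies, of which 8 passed the filter and 7 were called higher with HMBA. They held 117563 counts over the 9 libraries, 1.22% of the counts of the 13 mRNAs, and 109628 of these were in MTATP6P1 (1:633696-634376 on hg38), a close copy of MT-ATP6, with a log2 fold change of 0.92 beside 0.98 for MT-ATP6. The sources used here do not say how reads that fit both were assigned.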

How the data were processed

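Expression was measured by stranded poly(A) RNA-seq, per the labels' protocols. The authors deposited raw counts of reads per Ensembl gene for 16 libraries, and samples were grouped by their titles. The tools are edgeR, HTSeq 0.6.1p1, Cufflinks 2.1.1 and STAR 2.4.0b with hg38, listed without roles, per the submitters' processing notes. For the annotation and strand setting, the answer is "not given in the sources used here". Positions and exon lengths are from GENCODE 29, whose positions matched 58503 of 60676 rows, and 60357 rows had a symbol.

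The counts were fitted with edgeR 4.0.16 in R 4.3.3 (quasi-likelihood F-test, TMM, filterByExpr, additive terms for HMBA, EPZ-5676 and shRNA, Benjamini-Hochberg at 0.05) on 9 libraries with 5 residual degrees of freedom, and each product term was added alone. The lone library of a group is assumed to vary like the others. Levels are CPM on TMM-scaled totals, and totals, NELFE, HEXIM1 and markers are unscaled. The floor of 3 counts covers counting error only, while each SE comes from the fit and includes the spread between libraries. Members, lists and libraries were chosen with earlier results of these data known. Named were the 13 mitochondrial mRNAs, the 4 regulators, the subunit of each complex with the largest rise and fall, every subunit called for another factor, and up to 3 called rises and falls of each list with at least 2 CPM. Further subunits, and MT-RNR1, were named after their values were seen.

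Replicate numbers are shared by all groups. The deviations of same-numbered libraries from their group means correlated at 0.105 to 0.960 (median 0.444) over 28 pairs of groups, all over 0.1. In every group but shNELFE with both compounds, the library numbered 1 is one of the 7 that stood apart. These correlations therefore cannot tell a batch shared by replicate number from that difference in profile. Alternatives were RLE scaling, unscaled totals, no filter, DESeq2 1.42.0, limma-voom (limma 3.58.1), the 8 libraries of each number, all 16 with and without a replicate block, leaving out each library, and, added after the data were seen, totals without mitochondrial genes. The scripts were tested on simulated data.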

Additional observations from a re-analysis of the deposited data

Results flagged for a closer look

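In 3 of the 36 groups of values looked at, 1 library lay far from the others. Chance alone flags about 1 group in 20 where libraries are alike and groups independent. Here the groups mix treatments and the mitochondrial mRNAs come from shared transcripts, so that rate is no yardstick. All 3 flags are replicate 1 of shNELFE with both compounds among the 5 libraries with HMBA. MT-ND3 read 1833 CPM there, with the next library at 1019 CPM. MT-CO1 read 27148 CPM, with the next at 20255 CPM, and MT-CO3 read 16544 CPM, with the next at 10949 CPM. Without this library, all 13 mitochondrial mRNAs were still called higher with HMBA by edgeR, with a median log2 fold change of 0.94.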

How the results depend on the processing

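The 13 mitochondrial mRNAs were called higher with HMBA under every alternative on the 9 libraries and whenever 1 of them was left out. With all 16 libraries, with these and a replicate block, or with the 8 numbered 1, 0 of 13 were called. Those 3 fits called 0% of all genes for HMBA and for shNELFE, so they do not set the chain apart. The 24 nuclear subunits became 13 on unscaled totals (with 3 called lower), 0 in the same 3 fits, and 17 to 26 when 1 library was left out. For shNELFE, 2 mitochondrial mRNAs were called without a filter and in the 8 libraries numbered 2, 0 in the same 3 fits, and 0 to 2 when 1 library was left out. For shNELFE, nuclear subunits called higher were 1 without a filter, 2 by DESeq2 (7.13% of all genes in either direction) and 4 in the 8 libraries numbered 2. Those 8 leave out replicate 1 of shNELFE with both compounds, and 5.62% of all genes were higher and 7.48% lower there. Nuclear subunits called lower were 2 in those 8. When 1 library was left out, 0 to 4 were called higher and 0 to 2 lower. Shares of all genes are not given here for the fit without a filter or for the other fits that left out 1 library. The mean ratio of mitochondrial to nuclear counts was 1.40 times higher with HMBA, 1.60 times by medians, 1.18 times over all 16 libraries, and 1.36 to 1.42 times when 1 library was left out.

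With HMBA, in the 8 libraries numbered 1, signs reversed for MT-ND5 (-0.14), MT-CO2 (-0.052), TFAM (0.96), POLRMT (0.053), NDUFS1 (0.056), ATP5MJ (-0.15), SDHAF4 (-0.14), HSD17B10 (-0.18), FASTKD3 (0.22), MTPAP (0.44), TFB2M (0.59), TWNK (0.090), MRPS6 (-0.0012), MRPS30 (0.30) and OGDH (-0.010), none of them called. TFAM also reversed with all 16 libraries (0.037) and with the replicate block (0.27), and NDUFS1 with RLE scaling (0.0021), with DESeq2 (0.0022) and without the shNELFE HMBA library numbered 2 (0.018, the range when 1 library was left out being -0.078 to 0.018). The cause was not tested. The replicate block on all 16 libraries called no member, as did those libraries without it. With 9 libraries and 5 residual degrees of freedom, small changes of nuclear subunits may go uncalled.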
